A study of Mus musculus with 2 samples.

Results

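Lectins are proteins that read the sugars on cell surfaces, and 52 genes of 3 lectin classes were followed on a Tc9 array and a Tc1 array. They were all genes of the array annotation whose symbol begins with Clec and a digit or with Siglec, or is a numbered Lgals or a lettered Cd209 symbol. The rule left out 1 gene of this naming. The 52 genes were 8 galectins, 31 Clec genes, 6 Siglecs and 7 Cd209 genes, out of 19505 genes measured, and each had a single probe set.

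The Tc9 and Tc1 cells were CD8 T cells of mouse spleen and lymph node, stimulated on plate-bound anti-CD3 with soluble anti-CD28 in polarizing medium for 3 days and then rested for 2 days in medium with 10 ng/mL recombinant human IL-2. For polarization, Tc9 cells were given IL-4 at 10 ng/mL, TGF-β at 1 ng/mL and the XMG1.2 antibody to IFN-γ at 20 μg/mL, and Tc1 cells were given recombinant human IL-2 at 10 ng/mL. Cells of both groups were taken on day 5. Each group was 1 Affymetrix array, with no replicate, so no difference below has a test. The title and description of the second sample say Tc9 and its source name says Tc1, and it was taken as Tc9 from its title. The sources used here do not give the strain, the age or the number of mice. The stated purpose of the comparison was to find genes with higher expression in Tc9 cells.

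C-type lectins carry a domain that binds glycans in some members and proteins in others, and many of them are pattern receptors of myeloid cells or ligands of natural killer receptors. Siglecs are receptors for sialic acid that mostly carry inhibitory motifs. Galectins are soluble proteins that bind β-galactosides, cross-link surface glycoproteins, and are made by activated T cells among other cells.

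Lgals3 was the only one of the 13 detectable lectin genes that was at least 2-fold higher on the Tc9 array, and Clec2d and Clec4e were the only ones at least 2-fold lower, Clec4e as a bound that depends on the detection threshold. Lgals3 encodes galectin-3, the galectin with a single sugar-binding domain on a collagen-like tail. Clec2d encodes Clr-b, a ligand of the inhibitory natural killer receptor NKR-P1B, and Clec4e encodes Mincle, a receptor for mycobacterial cord factor. Detectable means that the brighter of the 2 arrays reached a log2 intensity of 6.43, which is the median over all genes and both arrays. By that rule 25.0% of the 52 lectin genes were detectable, against 52.0% of all genes. Of all detectable genes, 2.62% were at least 2-fold higher on the Tc9 array and 2.79% at least 2-fold lower.

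The sequences before the transcription starts of these 3 genes are shown because they mark the genes that differed. Each is the 250 bases upstream of the start, 5′ to 3′ on the strand of the gene, from the RefSeq promoter table on GRCm38.p6. Capitals mark matches, on both strands, to the STAT dimer site TTCNNNGAA, the STAT6 spacing, which is the same half-sites TTC and GAA parted by 4 bases, or the interferon regulatory factor core AANNGAAA. Lgals3 is shown from chr14:47373610-47373859 on the plus strand, Clec2d from chr6:129180365-129180614 on the plus strand and Clec4e from chr6:123289872-123290121 on the minus strand.
Lgals3: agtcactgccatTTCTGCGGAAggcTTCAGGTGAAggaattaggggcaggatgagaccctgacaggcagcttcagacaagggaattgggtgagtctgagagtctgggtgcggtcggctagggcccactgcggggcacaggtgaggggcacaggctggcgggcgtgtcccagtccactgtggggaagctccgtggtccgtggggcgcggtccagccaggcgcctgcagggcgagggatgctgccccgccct
Clec2d: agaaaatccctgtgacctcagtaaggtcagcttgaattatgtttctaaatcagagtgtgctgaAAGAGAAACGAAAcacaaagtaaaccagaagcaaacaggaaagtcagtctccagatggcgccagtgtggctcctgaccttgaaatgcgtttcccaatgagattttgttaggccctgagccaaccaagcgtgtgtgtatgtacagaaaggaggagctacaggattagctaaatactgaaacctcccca
Clec4e: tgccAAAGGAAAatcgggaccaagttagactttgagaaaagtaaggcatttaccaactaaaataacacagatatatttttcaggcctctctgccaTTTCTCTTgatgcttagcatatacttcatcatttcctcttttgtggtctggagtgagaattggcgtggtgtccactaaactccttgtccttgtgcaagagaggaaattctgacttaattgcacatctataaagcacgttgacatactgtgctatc

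The Lgals3 window held 2 matches to the STAT6 spacing, which begin 238 and 225 bases before the start, and none to the other motifs. The Clec2d window held 2 matches to the regulatory factor core, which overlap each other and begin 187 and 182 bases before the start. The Clec4e window held 2 matches to the same core, at 246 bases and, on the opposite strand, at 155 bases before the start. Over all 32851 windows of the same length in the table, 5.85% held the STAT6 spacing, 21.3% the core and 7.02% the STAT dimer site. Among the 10 detectable lectin genes with a table entry, the STAT6 spacing was found in Lgals3 alone. The core was found in Clec2d, Clec2i, Clec4e and Lgals9. These matches describe letters in the windows, and binding was not measured.

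**Figure D1:**
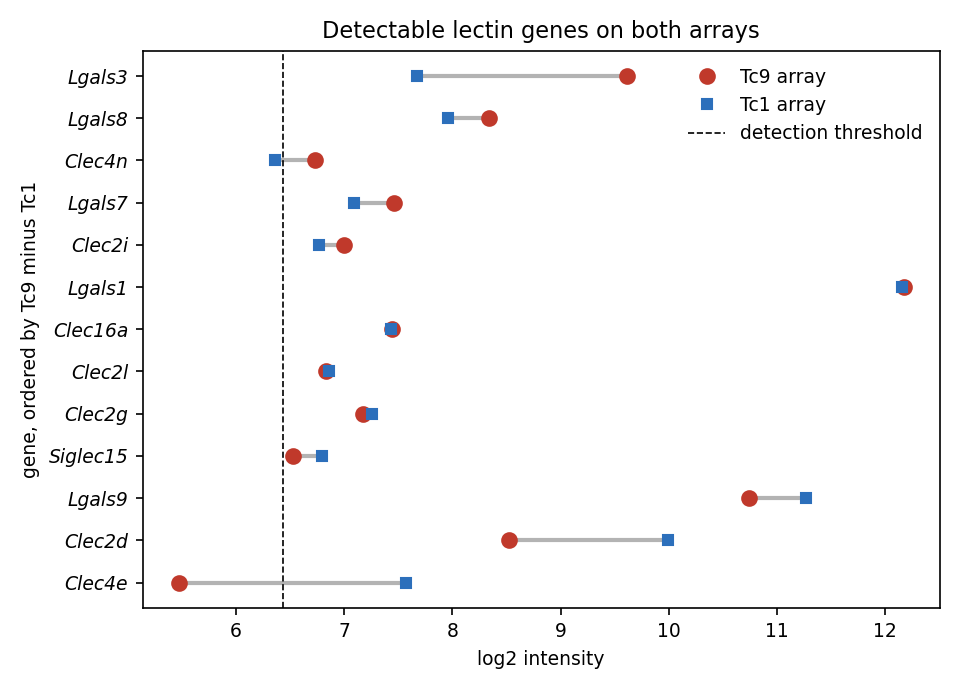
Log2 intensity of the 13 detectable lectin genes on the Tc9 array (circles) and the Tc1 array (squares), 1 array each, ordered by log2 Tc9 minus log2 Tc1. Lgals3 lies at 9.61 on the Tc9 array and 7.68 on the Tc1 array, Clec2d and Clec4e lie further left on the Tc9 array, and both points of Lgals1 nearly coincide.

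Among the galectins, 5 of 8 genes were detectable. Lgals3 had an intensity of 782 on the Tc9 array and 204 on the Tc1 array, or 9.61 and 7.68 on the log2 scale. It was 3.83-fold higher in Tc9 cells, a log2 difference of 1.94. With values below the threshold raised to it, this stood at rank 56 from the top among the differences of 10147 detectable genes. Both of its values were above the detection threshold, so the fold is a measured one. Lgals3 is also known as Mac-2, a surface antigen of macrophages.

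Lgals1, which encodes galectin-1, a dimeric galectin that restrains effector T cells, had an intensity of 4606 on the Tc9 array and 4564 on the Tc1 array. Its log2 difference was 0.01, with no direction that can be read from this pair of arrays. Lgals9, which encodes galectin-9, a galectin with 2 sugar-binding domains and a ligand of TIM-3, had an intensity of 1707 on the Tc9 array and 2468 on the Tc1 array. It was 1.45-fold lower in Tc9 cells, a log2 difference of -0.53, which is within 2-fold. Lgals8, which encodes the galectin that recognises damaged vesicles, had 323 on the Tc9 array and 249 on the Tc1 array, a log2 difference of 0.37. Lgals7, known mainly from stratified epithelium, had 176 on the Tc9 array and 137 on the Tc1 array, also a log2 difference of 0.37. So Lgals3 differed past 2-fold while the other 4 detectable galectins lay between -0.53 and 0.37 on the log2 scale.

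The remaining galectins, Lgals2, Lgals4 and Lgals12, were below the threshold on both arrays. Lgals4, a galectin of intestinal epithelium, came closest, with log2 intensities of 5.76 on the Tc9 array and 6.39 on the Tc1 array. The median log2 difference over the 5 detectable galectins was 0.37, against 0.05 over all detectable genes.

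Of 31 Clec genes, 7 were detectable. Clec2d had an intensity of 368 on the Tc9 array and 1017 on the Tc1 array, or 8.52 and 9.99 on the log2 scale. It was 2.77-fold lower in Tc9 cells, a log2 difference of -1.47, at rank 100 from the bottom among detectable genes counted in the same way. Both values were above the threshold. Of the 8 measured Clec2 genes, 4 were detectable, and Clec2d was the one past 2-fold. Clec2i, which encodes Clr-g, a ligand of other NKR-P1 receptors, had 127 on the Tc9 array and 109 on the Tc1 array. Clec2g had 144 on the Tc9 array and 153 on the Tc1 array. Clec2l had 114 on the Tc9 array and 116 on the Tc1 array. The log2 differences of these 3 genes lay between -0.08 and 0.23, and that of Clec2l, at -0.03, turned to 0.04 when the arrays were centred on their medians.

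The Klrb1 genes encode the NKR-P1 receptors that bind Clec2 proteins, and none of the 5 measured ones was detectable on either array. They were listed together with Klrg1, a lectin-like receptor for cadherins, and Pdpn, the ligand of CLEC-2, and no gene of the list was detectable. Klrb1b, the gene of NKR-P1B and so the receptor of Clr-b, came to log2 intensities of 4.58 on the Tc9 array and 6.24 on the Tc1 array.

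Clec4e had an intensity of 44.4 on the Tc9 array and 191 on the Tc1 array, or 5.47 and 7.58 on the log2 scale. The Tc9 value was below the threshold, so Clec4e is given as at least 2.21-fold lower in Tc9 cells, a log2 difference of -1.14 with the Tc9 value raised to the threshold. With the threshold at the 95th percentile of the negative control probe sets, a log2 intensity of 7.16, that bound shrank to at least 1.34-fold, and Clec2d was then the only lectin gene at least 2-fold lower. Clec4n, which encodes Dectin-2, a receptor for fungal mannans, had 106 on the Tc9 array and 82.3 on the Tc1 array. Its Tc1 value was just below the threshold, so its difference is a bound of at least 1.23-fold toward higher values in Tc9 cells. The other 9 of 11 measured Clec4 genes, among them Clec4d, which encodes the Mincle partner MCL, were below the threshold on both arrays. Clec4d had 23.6 on the Tc9 array and 61.4 on the Tc1 array, and no fold is given for it.

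The last detectable Clec gene was Clec16a, whose product acts in endosomal trafficking and mitophagy and is not known as a sugar receptor. It had an intensity of 174 on the Tc9 array and 173 on the Tc1 array, a log2 difference of 0.01 that turned sign after quantile normalization. Among the Clec genes below the threshold on both arrays were Clec9a, a receptor of cross-presenting dendritic cells, Clec12a and Clec5a, receptors of myeloid cells, and Clec1b, the CLEC-2 receptor of platelets. Genes of the Clec2, Clec4a, Clec4b and Cd209 groups have close relatives and can share probes, and whether their probe sets separate them was not tested.

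**Figure D2:**
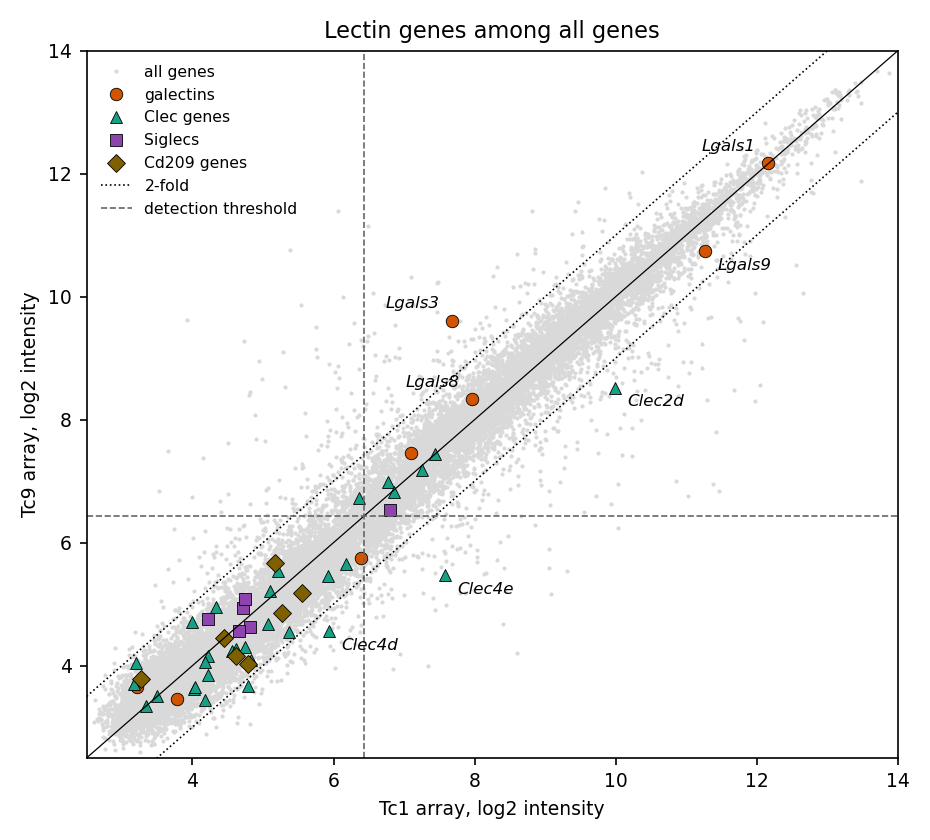
Log2 intensity on the Tc9 array (vertical) against the Tc1 array (horizontal) for all 19505 genes (grey) and the 52 lectin genes (coloured by family), with dashed lines at the detection threshold of 6.43 and dotted lines at 2-fold. Most lectin genes sit in the lower left corner below the threshold on both arrays. Lgals3, Clec2d and Clec4e lie outside the dotted lines, as do Clec4d and Clec4g from that corner.

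Genes with Siglec and Cd209 symbols gave almost no signal above the threshold. Of the 6 genes with Siglec symbols, only Siglec15, a receptor of osteoclasts and myeloid cells, was detectable. It had an intensity of 92.1 on the Tc9 array and 111 on the Tc1 array, a log2 difference of -0.27. Both values were close to the threshold intensity of 86.3. Siglec1 of macrophages, Siglece of myeloid cells, Siglecf of eosinophils, Siglecg of B cells and Siglech of plasmacytoid dendritic cells had log2 intensities between 4.56 and 5.08 on the Tc9 array and between 4.22 and 4.81 on the Tc1 array. None of the 7 Cd209 genes, relatives of the dendritic cell receptor DC-SIGN, was detectable. Their log2 intensities ran from 3.78 to 5.68 on the Tc9 array and from 3.26 to 5.56 on the Tc1 array.

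In all, 39 of the 52 lectin genes were below the threshold on both arrays. Of these, 14 had a higher and 25 a lower value on the Tc9 array, and values so dim have no reliable order. Clec4d and Clec4g were the 2 of them with measured differences past 2-fold, both toward lower values in Tc9 cells. Counting all 52 genes whatever their signal, 1 was at least 2-fold higher and 4 were at least 2-fold lower, where 1.8% and 2.08% of all measured genes were. The median log2 difference over the 13 detectable genes was 0.01, against 0.05 over all detectable genes.

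The neighbours of the 3 genes past 2-fold were read in chromosome order, a comparison chosen after their values were seen. Clec2d lies beside Cd69, the gene of another C-type lectin-like protein, which retains T cells in tissue. Cd69 had log2 intensities of 9.59 on the Tc9 array and 12.09 on the Tc1 array, a difference of -2.50. Clec2g was the only other detectable gene within 4 places of Clec2d, and its difference was -0.08. Clec4e lies beside Clec4d, which was below the threshold on both arrays, and Clec4n lies next after that. All 7 measured genes around Lgals3, none of them a lectin, were detectable, with differences from -0.24 for Wdhd1 to 0.17 for Fbxo34.

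**Figure D3:**
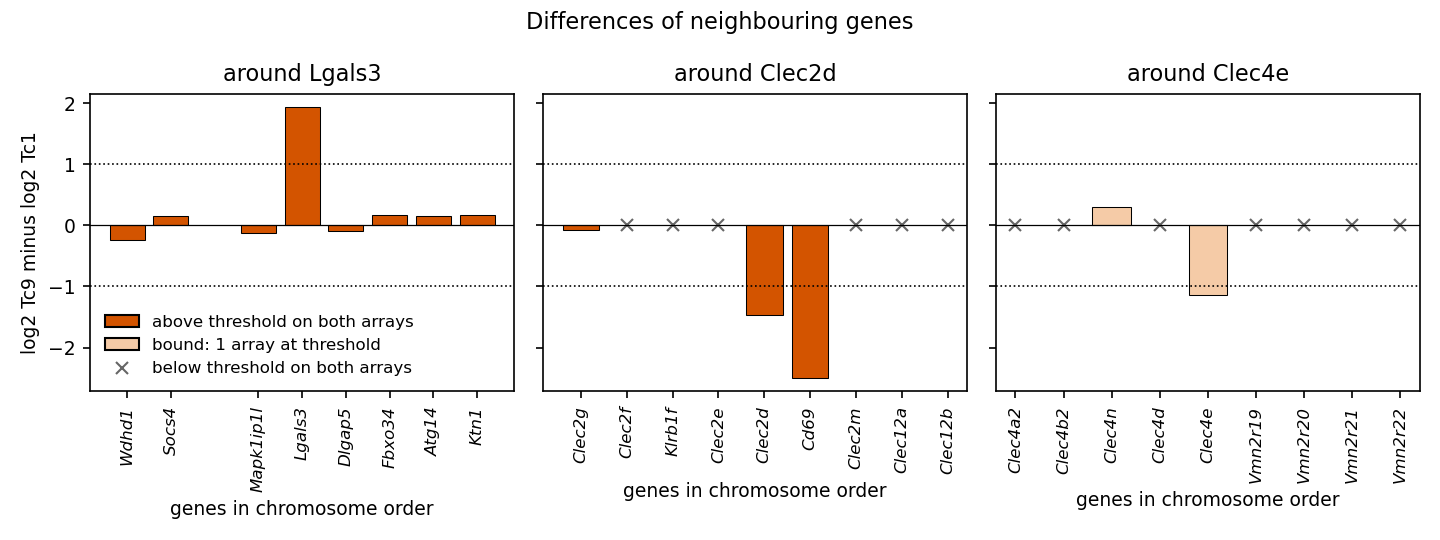
Log2 Tc9 minus log2 Tc1 of Lgals3, Clec2d and Clec4e and of the measured genes within 4 places in chromosome order, with dotted lines at 2-fold. Dark bars are genes above the threshold on both arrays, pale bars are bounds with 1 array raised to the threshold and crosses are genes below it on both arrays. Lgals3 stands alone at 1.94, Clec2d (-1.47) has Cd69 (-2.50) beside it, and Clec4e (-1.14 as a bound) has no neighbour past 2-fold.

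Genes that work with these lectins were read from lists. Mincle signals through the Fc receptor gamma chain, the kinase Syk and the adaptor Card9. Fcer1g, which encodes that chain, had log2 intensities of 6.94 on the Tc9 array and 8.61 on the Tc1 array, a difference of -1.67. Syk had 7.84 on the Tc9 array and 8.54 on the Tc1 array, and Card9 had 8.41 on the Tc9 array and 8.95 on the Tc1 array. Both were lower in Tc9 cells by less than 2-fold. Of 20 detectable genes of C-type lectin signalling, Fcer1g was the only one past 2-fold, and the median difference was 0.03. None of the 5 detectable Siglec adaptor genes passed 2-fold. Ptpn6, which encodes the phosphatase SHP-1, had 11.57 on the Tc9 array and 11.62 on the Tc1 array. Inpp5d, which encodes SHIP-1, had 9.89 on the Tc9 array and 9.30 on the Tc1 array.

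Among 20 detectable galectin counter-receptor genes, 2 lay past 2-fold toward lower values on the Tc9 array and none toward higher ones, and the median difference was -0.15. Besides Cd69 the lower one was Lgals3bp, which encodes a secreted glycoprotein that binds galectin-3. Lgals3bp had log2 intensities of 9.58 on the Tc9 array and 10.97 on the Tc1 array, and was 2.62-fold lower, opposite in sign to Lgals3. Ptprc, which encodes CD45, had 12.16 on the Tc9 array and 12.57 on the Tc1 array, and Cd44 had 11.56 on the Tc9 array and 11.50 on the Tc1 array. Tnfrsf4, the gene of the costimulatory receptor OX40, had 12.51 on the Tc9 array and 12.70 on the Tc1 array. Tnfrsf9, the gene of the costimulatory receptor 4-1BB, had 12.30 on the Tc9 array and 12.86 on the Tc1 array. Havcr2, which encodes TIM-3, was below the threshold on both arrays, at 5.34 on the Tc9 array and 5.48 on the Tc1 array.

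The glycans that galectins and Siglecs bind are set by glycosyltransferases. Among 10 detectable sialyltransferase genes, 3 lay past 2-fold toward higher values on the Tc9 array and none toward lower ones, and the median difference was 0.42. This median was 0.12 when all 14 measured genes were counted whatever their signal. St3gal1, which caps core O-glycans with sialic acid, had log2 intensities of 10.17 on the Tc9 array and 8.65 on the Tc1 array, a 2.87-fold higher value. St6gal1 adds the α2,6-linked sialic acid that masks galectin-1 sites and forms Siglec ligands, and had 10.21 on the Tc9 array and 8.76 on the Tc1 array, a 2.73-fold higher value. St6galnac2 was 2.17-fold higher. Of the 10 detectable genes, 6 had higher and 4 had lower values on the Tc9 array. The 4 lower ones were all within 2-fold, among them St3gal6 at 6.67 on the Tc9 array and 7.51 on the Tc1 array. None of the 9 detectable sialic acid synthesis genes and none of the 13 of N-glycan branching and galactosylation passed 2-fold, with median differences of -0.05 and 0.03. In those lists Mgat5, whose product builds the branches that galectin-3 prefers, had 10.06 on the Tc9 array and 9.21 on the Tc1 array. Cmah, which makes the glycolyl form of sialic acid, had 9.30 on the Tc9 array and 10.15 on the Tc1 array.

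**Figure D4:**
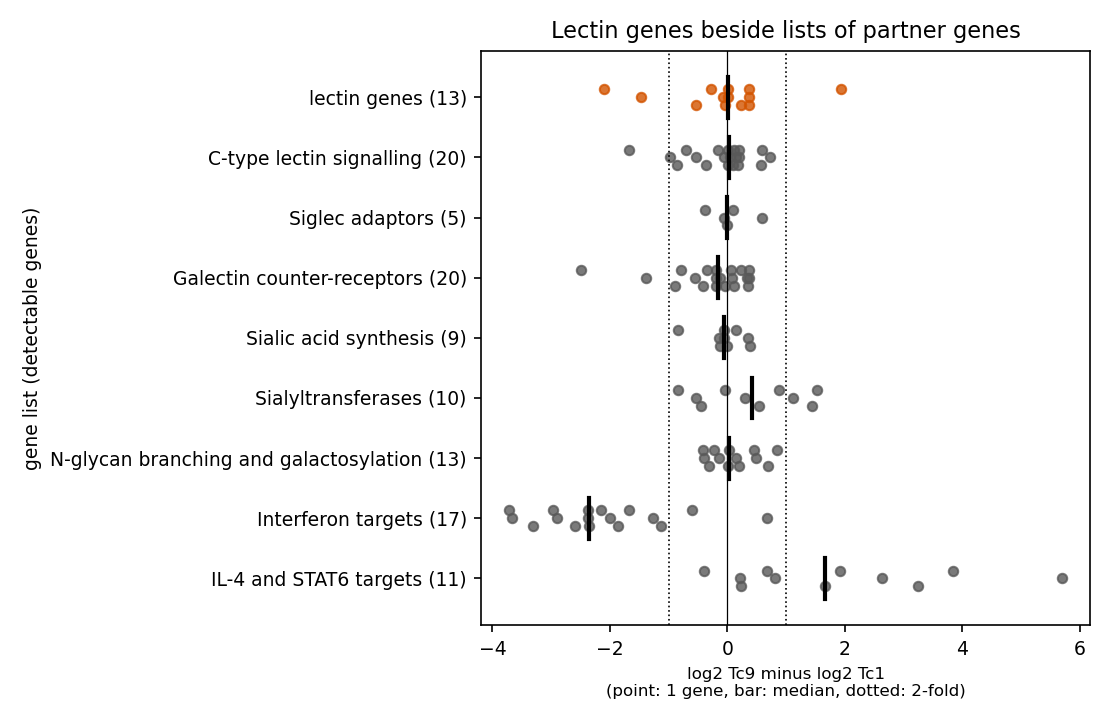
Log2 Tc9 minus log2 Tc1 of each detectable gene (points) in the lectin set and in 8 lists of partner or cytokine target genes, with the median of each list as a bar, the number of detectable genes in brackets, dotted lines at 2-fold and values below the detection threshold plotted as measured. The lectin genes centre near 0 with 3 points outside the dotted lines, sialyltransferases centre at 0.42, interferon targets at -2.36 and IL-4 targets at 1.67.

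Cytokine target genes and cell markers were read beside the lectins. The label check gave Il9 at log2 intensities of 8.45 on the Tc9 array and 4.82 on the Tc1 array, and Ifng at 7.57 on the Tc9 array and 9.28 on the Tc1 array. Tbx21, which encodes the type 1 factor T-bet, had 6.50 on the Tc9 array and 9.56 on the Tc1 array. Among 17 detectable interferon targets, 15 lay past 2-fold by measured values toward lower values on the Tc9 array and none toward higher ones. Their median difference was -2.36, or -1.93 with dim values at the threshold, beside 0.01 over the 13 detectable lectin genes. Of the 4 lectin genes found with the interferon regulatory factor core, Clec2d had -1.47, Clec4e -1.14 as a bound, Lgals9 -0.53 and Clec2i 0.23. The 15 genes were Irf1, a transcription factor, the GTPase genes Gbp2, Gbp3, Gbp7, Iigp1, Igtp and Irgm1, the antigen processing genes Psmb9 and Tap1, the chemokine genes Cxcl9 and Cxcl10, and Ifit1, Ifit3, Isg15 and Irf7. Of these, Ifit1, Ifit3, Isg15, Irf7, Cxcl9 and Cxcl10 were below the threshold on the Tc9 array. As bounds, Ifit1 (at least 1.33-fold), Ifit3 (at least 1.77-fold) and Cxcl10 (at least 1.49-fold) did not reach 2-fold. Gbp2 had log2 intensities of 8.30 on the Tc9 array and 11.97 on the Tc1 array. Among 11 detectable IL-4 and STAT6 targets, 6 lay past 2-fold toward higher values and none toward lower ones. Their median difference was 1.67, or 1.06 with dim values at the threshold, and that of Lgals3 was 1.94 either way. The 6 genes were Chil3 and Chil4, of chitinase-like proteins, Arg1, of arginase 1, the chemokine genes Ccl17 and Ccl24, and Egr2, a transcription factor. Of these, Egr2 alone was above the threshold on both arrays, at 11.77 on the Tc9 array and 9.85 on the Tc1 array. The part of these programs in the lectin differences was not tested, and neither was which cells these transcripts came from.

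All 8 measured CD8 T cell markers were detectable, with Cd8a at log2 intensities of 11.93 on the Tc9 array and 12.19 on the Tc1 array. Their median log2 difference was -0.23, and 7 had lower values on the Tc9 array, while Thy1 had a higher one. Cd5 alone was past 2-fold, at 9.66 on the Tc9 array and 11.31 on the Tc1 array. Of 8 measured monocyte and macrophage markers, which matter for Lgals3, Clec4e and the dim myeloid lectins, 4 were detectable. The summed intensity of all 8 was 1009 on the Tc9 array and 1058 on the Tc1 array. Neither array brought the defining markers Csf1r, Adgre1 and Cd14 to the threshold. The median log2 difference of the 4 detectable ones was -0.31, and over all 8 it was -0.003. Below the threshold, Mrc1, Adgre1 and Csf1r had higher values on the Tc9 array and Cd14 a lower one. Mrc1 had log2 intensities of 5.05 on the Tc9 array and 3.55 on the Tc1 array, and values so dim have no reliable order. Lyz2 was higher on the Tc9 array, at log2 intensities of 8.79 on the Tc9 array and 8.36 on the Tc1 array, and Fcgr3, Fcgr1 and Itgam were lower. Fcgr3, an Fc receptor that pairs with the Fcer1g chain, had 7.54 on the Tc9 array and 8.41 on the Tc1 array. Of 6 measured dendritic cell markers 3 were detectable, with a summed intensity over all 6 of 1664 on the Tc9 array and 1760 on the Tc1 array. Of 6 measured neutrophil markers 1 was detectable, with a sum of 297 on the Tc9 array and 250 on the Tc1 array. Cd4 was detectable, at log2 intensities of 8.74 on the Tc9 array and 9.33 on the Tc1 array. All 7 measured B cell markers were detectable, with a summed intensity of 2759.7 on the Tc9 array and 4042 on the Tc1 array and a median log2 difference of -0.43. B cells also express Clec2d. In bulk RNA, fewer cells of a type and less RNA per cell cannot be told apart, and the part of other cells in these values was not tested.

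Intensities over all probe sets had medians of 53.1 on the Tc9 array and 57.2 on the Tc1 array. Of 585 negative control probe sets that reached the detection threshold, 16.2% differed by at least 2-fold, and of 1158 positive controls 1.30% did. With 1 array per group, the number of arrays limits the precision.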

How the data were processed

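Per the labels' protocols, total RNA came from a Trizol extraction and was biotin-labelled with the WT Sense Target protocol. The authors deposited 1 linear intensity for each probe set and array. The sources used here do not give how background, summarization and normalization were handled, and similar quantiles led to taking the values as normalized. Intensities were converted to log2, and differences are log2 Tc9 minus log2 Tc1.

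Gene symbols came from the platform annotation, which named 19572 of 28846 probe sets with 1 symbol each and left 9274 without one. All 52 lectin symbols matched RefSeq on GRCm38.p6. For 55 genes with several probe sets, the brighter one was used. No detection calls were used, so the threshold is a convention. Where 1 array lay below it, the fold is a bound computed at the threshold. No fold is given where both did.

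With 1 array per group there is no test, and 2-fold is a size rule. All detectable lectin genes were named, and from the other lists the genes past 2-fold and some bright examples. Cd44, St3gal6, Cmah, Mgat5, Inpp5d, Syk, Card9, Havcr2, Klrb1b, the neighbouring genes and the motifs were chosen after values were seen. The members and lists were chosen with earlier results of these data known. Of 52 lectin genes, 42 had a promoter entry. Calculations used Python 3.11.15, numpy 2.4.6 and pandas 2.3.3, and were checked on simulated data. Alternatives were median centring, quantile normalization, other thresholds, dim values at the threshold, a pseudocount of 16 and averaged probe sets. Dim values at the negative control threshold were added after seeing the data.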

Additional observations from a re-analysis of the deposited data

How the results depend on the processing

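The counts of detectable lectin genes past 2-fold, 1 higher and 2 lower in Tc9 cells, were the same under median centring, quantile normalization, dim values at the threshold and averaged probe sets, and under the negative control threshold with measured values. With dim values raised to the negative control threshold, an alternative chosen after seeing the data, 1 was lower, since the difference of Clec4e was then -0.42. With no threshold 4 were lower, since Clec4d and Clec4g then count, and the median difference of the lectin genes was -0.11 in place of 0.01. At the negative control threshold 9 lectin genes were detectable in place of 13, and Clec2i, Clec2l, Clec4n and Siglec15 fell below it. Lgals3 and Clec2d stayed past 2-fold under each alternative that was run for them. Clec4e did so under each but dim values raised to the negative control threshold. The median of the lectin genes, near 0, was 0.08 after centring and -0.04 after quantile normalization, so its sign carries no information, and Clec2l and Clec16a each turned sign under 1 of these scalings. Among partner lists, dim values at the threshold gave medians of -1.93 for interferon targets and 1.06 for IL-4 targets. The negative control threshold gave 0.54 for sialyltransferases and -1.34 for lectins named otherwise. With dim values raised to it the medians were 0.54 for sialyltransferases, -1.26 for interferon targets and 0.68 for IL-4 targets. With no threshold the medians were 0.12 for sialyltransferases, -0.25 for lectins named otherwise and 1.36 for IL-4 targets. The list of Clec2 counter-receptors gave no median, as none was detectable. No paired analysis was possible because each group has 1 array.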

Other observations

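Lectins and lectin-like proteins whose symbols follow other naming were read from a list, which also held Lgals3bp, the gene of a galectin-3 ligand. Of 35 measured, 12 were detectable, and 6 of those lay past 2-fold toward lower values on the Tc9 array and none toward higher ones. Of all detectable genes 2.79% lay past 2-fold toward lower values, with a median log2 difference of 0.05. The list was chosen with earlier results of these data known, so its count can reflect that choice. The median log2 difference of the 12 detectable genes was -0.82, but -1.34 at the negative control threshold and -0.25 with no threshold. The 6 lower genes were Selp, Klrk1, Klrd1, Ly75, Cd69 and Lgals3bp. Both Cd69 and Lgals3bp were also counted among the galectin counter-receptors. Selp, which encodes P-selectin, had log2 intensities of 6.83 on the Tc9 array and 11.47 on the Tc1 array. Klrk1, which encodes NKG2D, had 5.48 on the Tc9 array and 8.13 on the Tc1 array, and Klrd1, which encodes CD94, had 6.32 on the Tc9 array and 7.89 on the Tc1 array, with both Tc9 values below the detection threshold. Ly75, which encodes the endocytic receptor DEC-205, had 7.64 on the Tc9 array and 8.92 on the Tc1 array, a 2.43-fold lower value. Lgalsl, a galectin-related gene, had 8.69 on the Tc9 array and 7.98 on the Tc1 array. Among the lectins of B cells, Cd22, a Siglec, had 8.93 on the Tc9 array and 9.20 on the Tc1 array. Fcer2a, which encodes CD23, had 7.68 on the Tc9 array and 8.03 on the Tc1 array, and Cd72 had 10.00 on the Tc9 array and 9.71 on the Tc1 array.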
